A study of Mus musculus with 2 samples.

Results

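DNA methylation was examined at 7 genes of mature fat cells, Adipoq, Lep, Fabp4, Plin1, Lpl, Pnpla2 and Fasn, in the epididymal fat, a visceral white adipose depot, of mice. Male C57BL/6J mice, an inbred strain, entered the study at 4 weeks of age. They were kept for 5 months on regular chow (STD) or on a high-fat diet (HFD) that supplied 60% of its energy as fat. Methylated DNA was captured with an antibody against 5-methylcytosine and sequenced (MeDIP-seq), and 1 peak list was deposited for each diet. A peak is a stretch where captured fragments pile up. Each diet has 1 library, of an unstated number of mice, so differences between the diets cannot be set against a spread between replicates and carry no p-value. The lists give positions on the mm9 genome build and no heights or read numbers, so the depth is unknown. A peak missing from 1 list therefore does not show that the site was unmethylated with that diet. Intervals are exact at 95%, account for counting error alone and take peaks as independent of each other.

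The members are the peaks that overlap by at least 1 bp a fixed window around each gene, which holds the gene with flanks of about 10 kb. On mm9 the windows ran, in kb, from 23136 to 23168 on chromosome 16 (Adipoq), 29000 to 29034 on chromosome 6 (Lep), 86854 to 86889 and 148631 to 148657 on chromosome 7 (Plin1 and Pnpla2), 10194 to 10219 on chromosome 3 (Fabp4), 71394 to 71441 on chromosome 8 (Lpl) and 120657 to 120696 on chromosome 11 (Fasn). Of 166438 STD and 175773 HFD peaks in all, 34 and 35 met this rule, and all of them are described here. The lists carry no gene names and no mm9 gene models were used. The gene is therefore taken as the inner part of its window, less 10 kb at each end. The edges of this inner part are accurate to about 1 kb at best, and exons, introns and UTRs were not assigned. For 5 of the 7 genes, RefSeq promoter sequences of the build GRCm38.p6 gave the strand, and with it which edge is the gene's start. Fabp4 and Lpl had no entry.

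White adipocytes store energy as triglyceride in a single large lipid droplet and secrete hormones called adipokines. Lpl (lipoprotein lipase) releases fatty acids from circulating lipoproteins, Fabp4 carries fatty acids inside the cell, and Fasn (fatty acid synthase) makes them from acetyl and malonyl units. Plin1 (perilipin) coats the droplet and restrains lipolysis, whereas Pnpla2 (adipose triglyceride lipase) cleaves the stored triglyceride. Lep encodes leptin, which signals the size of the fat store to the brain, and Adipoq encodes adiponectin, an insulin-sensitising adipokine. Methylation in mammals falls mainly on cytosines followed by guanine (CpG), and CpG-dense promoters are usually unmethylated. Whole tissue also holds vascular, stromal and immune cells, so a change in cell composition and a change within adipocytes cannot be told apart.

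The promoters of these genes differ widely in the number of CpGs that could carry methylation. The 250 bases before the start are shown for 3 of them: Lep, where peaks lay at the start of the gene, and Fasn and Adipoq, where none did, with every CG in capitals. CG was searched as the letters C and G, which read the same on both strands. At least 1 CG was present in 92.1% of the 32851 promoter stretches of this length in the table, and their median was 6 (quartiles 2 and 16). The sequences are RefSeq's, on the build GRCm38.p6, a later build than that of the peaks. Lep is on the plus strand at chr6:29059971-29060220, Fasn on the minus strand at chr11:120824548-120824797 and Adipoq on the plus strand at chr16:23146286-23146535.
Lep: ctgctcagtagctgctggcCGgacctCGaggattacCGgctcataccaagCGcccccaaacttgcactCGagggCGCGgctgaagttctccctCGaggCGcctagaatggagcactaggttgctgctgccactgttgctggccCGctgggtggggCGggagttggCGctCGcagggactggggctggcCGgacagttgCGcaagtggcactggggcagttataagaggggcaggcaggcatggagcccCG
Fasn: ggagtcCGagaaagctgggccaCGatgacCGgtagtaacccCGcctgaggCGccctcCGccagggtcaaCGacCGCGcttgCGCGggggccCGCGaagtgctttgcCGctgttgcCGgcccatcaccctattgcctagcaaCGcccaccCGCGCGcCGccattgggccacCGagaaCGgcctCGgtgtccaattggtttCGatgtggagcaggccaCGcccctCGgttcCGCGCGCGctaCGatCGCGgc
Adipoq: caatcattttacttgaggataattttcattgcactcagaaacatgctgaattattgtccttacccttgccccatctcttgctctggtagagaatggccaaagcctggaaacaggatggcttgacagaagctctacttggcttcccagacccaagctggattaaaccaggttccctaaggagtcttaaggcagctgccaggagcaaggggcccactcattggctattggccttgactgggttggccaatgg

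The Lep stretch held 16 CpGs, an observed over expected ratio of 0.606, and 25.4% of all promoter stretches held as many or more. The Fasn stretch held 33 CpGs with a ratio of 1.11, and 4.03% of all stretches reached that number. The Adipoq stretch held no CpG at all. Between these, the Pnpla2 stretch held 12 CpGs (ratio 0.482) and the Plin1 stretch 1 CpG (ratio 0.0550).

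The same sites were found at these genes with both diets for the most part, and the numbers of peaks were nearly equal. Plin1 had 8 STD and 8 HFD peaks, Fasn 8 and 8, Lep 6 and 7, Pnpla2 5 and 4, Adipoq 4 and 4, Lpl 2 and 3, and Fabp4 1 and 1. HFD peaks thus made up 50.7% (38.4 to 63.0) of the peaks in the windows, against 52.5% (49.9 to 55.1) in their surroundings and 51.4% (51.20 to 51.53) in the genome. A peak was said to have a partner when a peak of the other list overlapped it by at least 1 bp. In the windows, 5 of 34 STD peaks and 6 of 35 HFD peaks had none, whereas over chromosomes 1 to 19, X and Y 26.5% (STD) and 30.3% (HFD) had none. The interval of each share in the windows included the share in the genome, as given below. The interval of the HFD share of peaks counts a site found with both diets once per list, as if independent. Only the peaks without a partner, 5 with STD and 6 with HFD, make the numbers of the lists differ.

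**Figure D1:**
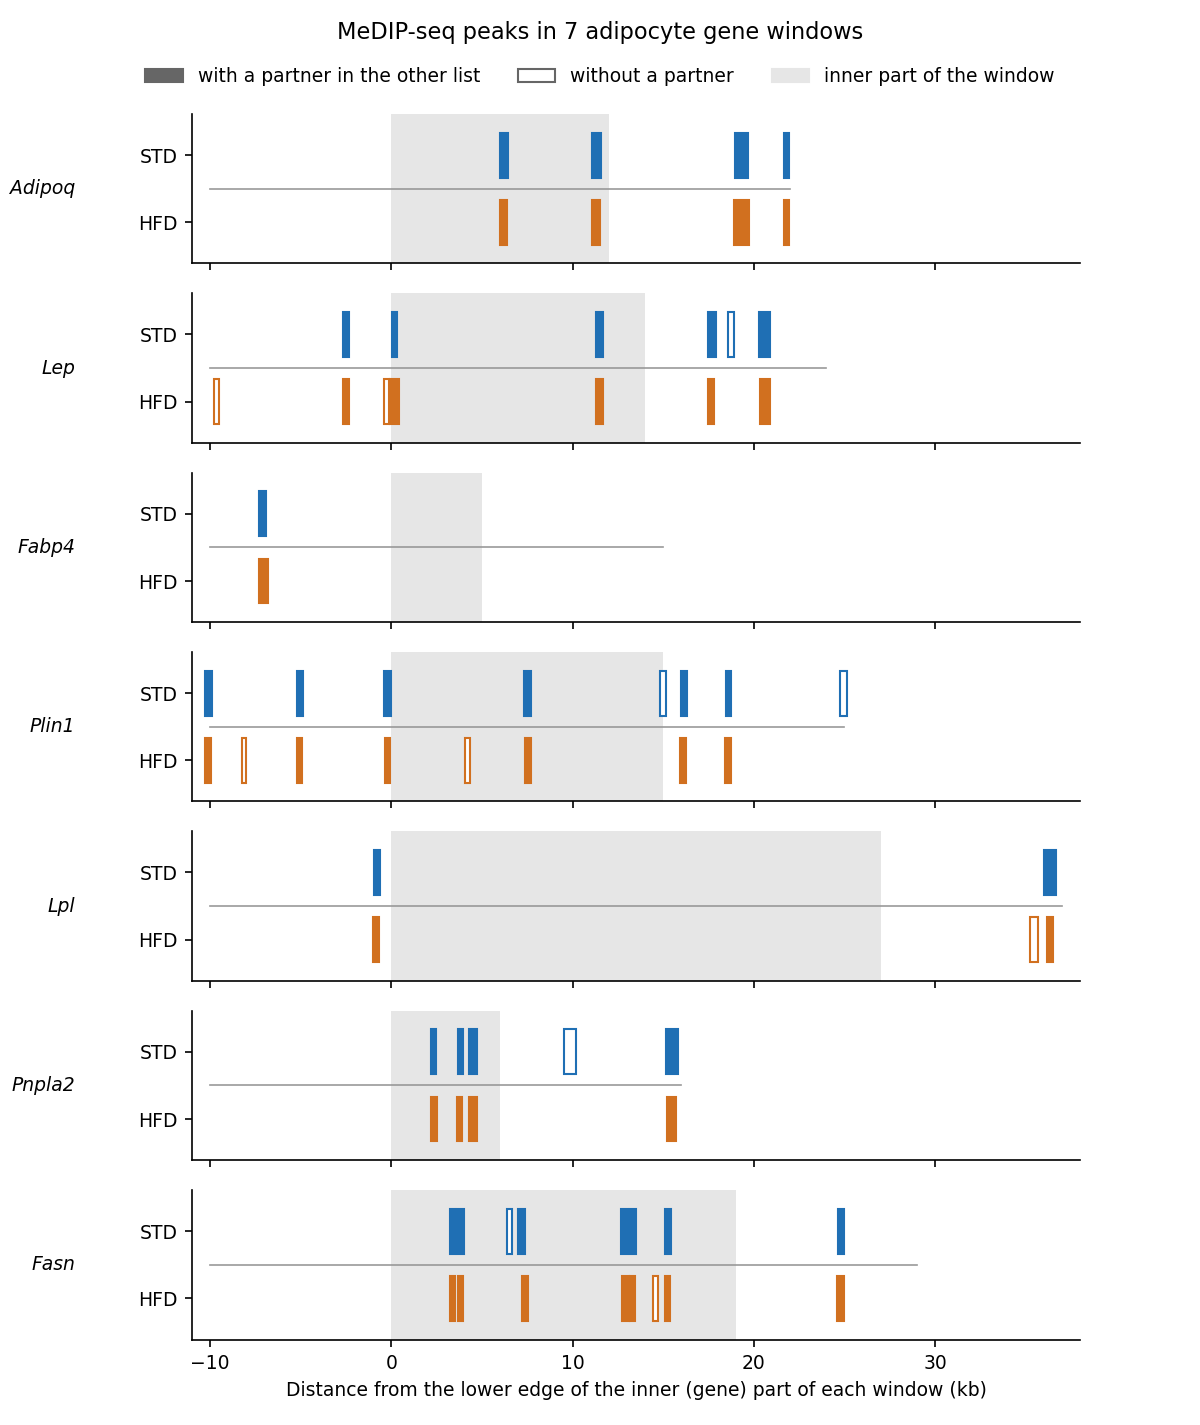
Peaks in the window of each gene, drawn to scale against the distance in kb from the lower edge of the inner part (grey), with STD peaks above and HFD peaks below each line. Filled boxes have a partner in the other list and open boxes have none: 5 of 34 STD and 6 of 35 HFD boxes are open, and the inner parts of Fabp4 and Lpl hold no box.

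Of the adipokine genes, Lep carried the clearest difference in extent, at the lower edge of its inner part, which is the start of the gene by its strand. The STD peak there ran on chromosome 6 from 29010012 to 29010294, a width of 283 bp. This was only 20 bp above the smallest width of the STD list. The overlapping HFD peak ran from 29009930 to 29010396, a width of 467 bp. The HFD peak was 184 bp wider and enclosed the STD peak. A second HFD peak lay just before it, from 29009590 to 29009848 (259 bp), and the STD peak was 163 bp away from that one. Within 1 kb on either side of the edge, STD peaks covered 283 bp and HFD peaks 726 bp. The CpG-rich promoter sequence shown above belongs to this end of the gene, but whether these peaks cover it was not determined, since the builds differ. Of the 120322 STD peaks in the genome that pair with exactly 1 HFD peak and the reverse, 2.55% had an HFD partner wider by at least this much. Among the 13385 pairs whose STD peak was within 10 bp of the same width, the share was 3.61% and the median difference 15 bp. This pair therefore stood toward the end of a distribution that holds many pairs like it.

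The other Lep peaks lay within and beyond the gene. Inside the gene, near its end, an STD peak of 367 bp (29021310 to 29021676) paired with an HFD peak of 435 bp (29021270 to 29021704). Beyond the end of the gene, the widest Lep peaks of both lists paired at 631 bp with STD (29030263 to 29030893) and 539 bp with HFD (29030351 to 29030889). A pair of 476 and 343 bp lay between these, and a pair of 359 and 342 bp lay before the start of the gene. So the HFD peak was the wider one at the start and inside the gene, and the STD peak in the 3 pairs of the flanks. One STD peak of 290 bp in the upper flank had no partner, with an HFD peak 811 bp away. At the far lower end of the window, an HFD peak of 276 bp lay 2153 bp from the nearest STD peak. In the RefSeq gene table, the RNA gene Lnclep is the neighbour of Lep on the lower side. Which peaks of the flanks fall within neighbouring genes was not determined for any window.

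Adipoq had the same 4 sites in both lists and none found with 1 diet only. Over the genome, 26.5% of STD and 30.3% of HFD peaks had no partner, and 4 sites are too few to set Adipoq apart. No peak lay within 6001 bp of the lower edge of its inner part, the start of the gene, in either list. In the inner part, the STD peak on chromosome 16 from 23152002 to 23152417 (416 bp) and its HFD partner of 403 bp began at the same base. Toward the end of the gene, the STD peak from 23157080 to 23157563 (484 bp) and its HFD partner of 430 bp again shared their first base. The widest peak of any of the 7 windows lay past the end of Adipoq, at 698 bp with STD (23164988 to 23165685) and 812 bp with HFD (23164914 to 23165725). The last pair was narrow, at 277 and 255 bp, the latter being the smallest width in the HFD list. A stretch of 30.6 kb without a peak in either list ran from 23121445 to 23152001. It took in the start of the gene and the part of the inner region before its peaks. Such a stretch is common: 6.99% of the peak-free stretches on the autosomes were at least as long, and they held 41.2% of all peak-free bases. The Adipoq promoter sequence, as shown, has no CpG.

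Among the genes of the lipid droplet, Plin1 had 2 of 8 STD and 2 of 8 HFD peaks without a partner, close to the 26.5% and 30.3% of the genome. By its strand, the start of Plin1 is toward the upper edge of the inner part. This inner part, of 15 kb, is longer than the gene in the later build, so the place of the start is approximate. An STD peak crossed the upper edge, on chromosome 7 from 86878853 to 86879166 (314 bp). No HFD peak overlapped it, and the nearest, from 86879937 to 86880260, was 770 bp away and itself paired with another STD peak of 321 bp. Among STD peaks at least as wide as this one, 14.0% had no partner anywhere in the genome, so such a peak is not rare. At the other edge, an STD peak of 357 bp (86863609 to 86863965) paired with an HFD peak of 280 bp (86863631 to 86863910).

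The other Plin1 peaks were narrow and spread over the window. In the inner part, an STD peak of 346 bp (86871343 to 86871688) paired with an HFD peak of 324 bp, and an HFD peak of 293 bp (86868050 to 86868342) lay 3000 bp from any STD peak. In the flanks, an STD peak of 343 bp (86888784 to 86889126) lay 6019 bp from any HFD peak and crossed the upper bound of the window. An HFD peak of the smallest width in its list, 255 bp, lay 1622 bp from any STD peak. The widest Plin1 peaks were 394 bp with STD (86853722 to 86854115), across the lower bound of the window, and 365 bp with HFD (86882400 to 86882764). Over its 6 pairs, the HFD peak was wider in 2 and narrower in 4, by between -110 and 91 bp. The neighbours of Plin1 in the gene table are Kif7, which encodes a kinesin, and Pex11a, which encodes a peroxisomal membrane protein.

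Pnpla2 held the broadest peak found with 1 diet only in any of the windows. This STD peak lay on chromosome 7 from 148650523 to 148651165, 3522 bp above the inner part and past the end of the gene. It was 643 bp wide, and the nearest HFD peak was 4817 bp away. In the STD list 6325 peaks were at least this wide, and 141 of them (2.23%) had no HFD partner. The gene table lists Cracr2b, which encodes a regulator of calcium channels, as the neighbour on this side. With STD the widest Pnpla2 peak was a shared one at 659 bp (148656140 to 148656798), whose HFD partner, the widest HFD peak there, was 510 bp (148656211 to 148656720).

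Inside Pnpla2, all 3 sites were found with both diets. They are too few to set the gene apart from the genome, where 26.5% of STD and 30.3% of HFD peaks had no partner. From the start of the gene on, the STD widths were 275, 271 and 457 bp and the HFD widths 323, 320 and 424 bp. The STD peak nearest to the start, from 148643191 to 148643465, was 2190 bp above that edge, and the nearest HFD peak, from 148643203 to 148643525, 2202 bp. The peaks nearest to the end ran from 148645269 to 148645725 (STD) and from 148645282 to 148645705 (HFD). No peak of either list lay within 1 kb of the start, and its promoter stretch holds 12 CpGs.

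Of the genes of fatty acid handling, Fabp4 and Lpl had no peak in their inner parts with either diet. The only Fabp4 site lay in the lower flank on chromosome 3, at 425 bp with STD (10196683 to 10197107) and 524 bp with HFD (10196679 to 10197202). It was 6893 bp (STD) and 6798 bp (HFD) from the inner part. Above it, 25.9 kb followed without a peak in either list, up to 10223141, which covered the inner part as a whole. Of the peak-free stretches on the autosomes, 8.80% were at least as long, and they held 46.0% of all peak-free bases. The inner part of Fabp4 is only 5 kb long, and the median length of these stretches was 5.38 kb. The neighbours in the gene table, Fabp9 and Fabp12, encode fatty acid-binding proteins of the same family.

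Lpl, with the longest inner part at 27 kb, lay within a stretch of 35.8 kb without a peak in either list, on chromosome 8 from 71403399 to 71439236. Such stretches are common: 5.51% of the 217410 peak-free stretches on the autosomes were at least as long, and they held 36.7% of all peak-free bases. Just below the inner part, an STD peak of 329 bp (71403070 to 71403398) paired with an HFD peak of 340 bp (71402997 to 71403336), 602 and 664 bp from the edge. In the upper flank, the widest Lpl peak with STD was 657 bp (71440004 to 71440660) and its HFD partner was 293 bp (71440191 to 71440483). The difference of -364 bp was the largest of all pairs in the 7 windows, and 0.406% of the pairs in the genome showed an HFD peak narrower by as much. Among the 855 pairs of like STD width, 3.74% did. The widest Lpl peak with HFD, 425 bp from 71439237 to 71439661, had no partner but was only 342 bp from that broad STD peak.

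Fasn carried its peaks inside the gene. In each list 7 of its 8 peaks lay in the inner part of 19 kb and 1 in the upper flank, before the start of the gene. By its strand, Fasn starts at the upper edge, and the nearest peaks were 3600 bp (STD, 120682107 to 120682400) and 3595 bp (HFD, 120682096 to 120682405) from it, inside the gene. The peak pair on the other side of the start, of 306 bp with STD and 363 bp with HFD, was 5662 and 5608 bp away. The start of Fasn, whose promoter stretch has 33 CpGs, thus lay in a gap between peaks with both diets. Near the end of the gene, a pair of 277 and 289 bp (120670228 to 120670504 and 120670218 to 120670506) was followed by a pair of 394 and 315 bp.

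Peaks of Fasn found with 1 diet only were among the narrowest. The STD peak without a partner, from 120673370 to 120673633, was 264 bp wide, 1 bp above the smallest width of its list, and lay 597 bp from an HFD peak. The HFD peak without a partner was 269 bp wide (120681444 to 120681712) and lay 394 bp from an STD peak. The widest Fasn peak with STD was 401 bp (120673971 to 120674371). Its HFD partner of 284 bp shared 141 bp with it, 49.6% of the shorter peak, the smallest overlap among the pairs of all 7 windows. The widest with HFD was the 363 bp peak of the upper flank (120691609 to 120691971).

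Across the 7 genes, the sites found with both diets paired one to one. There were 29 such pairs, and the HFD peak was wider in 12 and narrower in 17. Over all 120322 pairs of the genome it was wider in 52111, narrower in 67407 and equal in 804, so narrower HFD peaks prevailed there too. The median difference in the windows was -17 bp (quartiles -77.0 and 48.0), against -8 bp (quartiles -49 and 32) in the genome. The smallest width of the HFD list, 255 bp, is 8 bp below that of the STD list, 263 bp. By gene, the median ran from -176.5 bp over the 2 Lpl pairs to 99 bp for the single Fabp4 pair, with -44 bp over 6 Plin1 pairs, -17.5 bp over 4 Adipoq pairs, -17 bp over 5 Lep pairs, -8 bp over 7 Fasn pairs and 7.5 bp over 4 Pnpla2 pairs. Lep, Plin1, Lpl, Pnpla2, Fasn and Adipoq each held pairs of both directions, so no gene with more than 1 pair moved one way throughout.

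**Figure D2:**
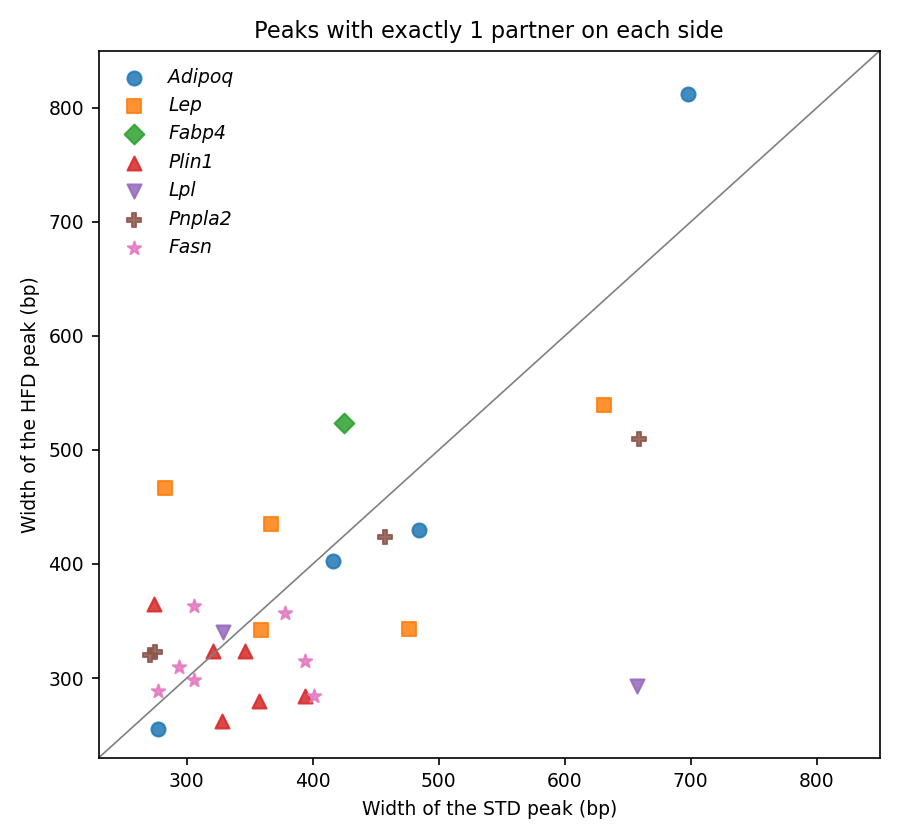
Widths in bp of the 29 peak pairs of the 7 gene windows, with the STD peak on the horizontal and its HFD partner on the vertical axis. Points above the line of equal width (12) have a wider HFD peak, with the Lep pair of 283 and 467 bp at the upper left, and points below it (17) a wider STD peak, with the Lpl pair of 657 and 293 bp at the lower right.

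The widths of the peaks without a partner were listed next. With STD they measured 264 (Fasn), 290 (Lep), 314 and 343 (Plin1) and 643 bp (Pnpla2), and 2 of the 5 were wider than the median of their list, 332 bp. With HFD they measured 255 and 293 (Plin1), 259 and 276 (Lep), 269 (Fasn) and 425 bp (Lpl), and 1 of the 6 was wider than the median, 321 bp. Over the genome, 22.1% of 44070 STD and 23.1% of 53174 HFD peaks without a partner were wider than the median of their list, so narrow peaks prevailed among these everywhere. Of the 11, 1 STD and 2 HFD peaks lay in an inner part by their midpoint, as did 15 of 34 and 16 of 35 of all peaks. Adipoq and Fabp4 had none.

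The starts of the 5 genes with a known strand differed among themselves. Within 1 kb of the start edge no peak lay at Adipoq, Pnpla2 or Fasn in either list. At Lep the covered length there was 283 bp with STD and 726 bp with HFD, and at Plin1 it was 314 bp and 64 bp. The order of the diets was thus opposite at the 2 genes, each with 1 library a diet. The Plin1 edge is approximate, and the nearest HFD peak lay 936 bp from it, so the values there depend on where the edge is set. Over the 5 starts together, 10 kb in all, 2 STD and 3 HFD peaks covered 5.97% and 7.90% of the bases. The 7 windows as a whole had 5.42% and 5.18%, but they include Fabp4 and Lpl, which gave no start and had the least cover. The single windows of the 5 genes were covered by 5.86% to 8.87% with STD and 5.94% to 7.83% with HFD. With so few peaks, all at Lep and Plin1, whether starts were poorer or richer in peaks than the windows cannot be said. At the end edges, peaks covered 484 bp (STD) and 430 bp (HFD) at Adipoq and 357 and 280 bp at Plin1, and none lay within 1 kb at Lep, Pnpla2 and Fasn.

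Partner shares were then set beside the surroundings, which are the 500 kb on each side of a window, 1 Mb in all per gene. In the windows, 85.3% of the STD peaks (68.9 to 95.1) had an HFD partner, against 74.9% (71.5 to 78.2) of 678 STD peaks of the surroundings and 73.5% in the genome. Of the HFD peaks in the windows, 82.9% (66.4 to 93.4) had an STD partner, against 67.6% (64.1 to 70.9) of 749 in the surroundings and 69.7% (69.53 to 69.96) in the genome. The shares in the windows were higher, but their intervals took in the genome's share for both diets, and the surroundings' share for both. With peaks of at least 300 bp only, the order turned for STD: 64.0% of the 25 STD peaks left in the windows had a partner that also passed, against 67.5% in the surroundings. For HFD it was 72.7% of 22, against 68.6%.

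**Figure D3:**
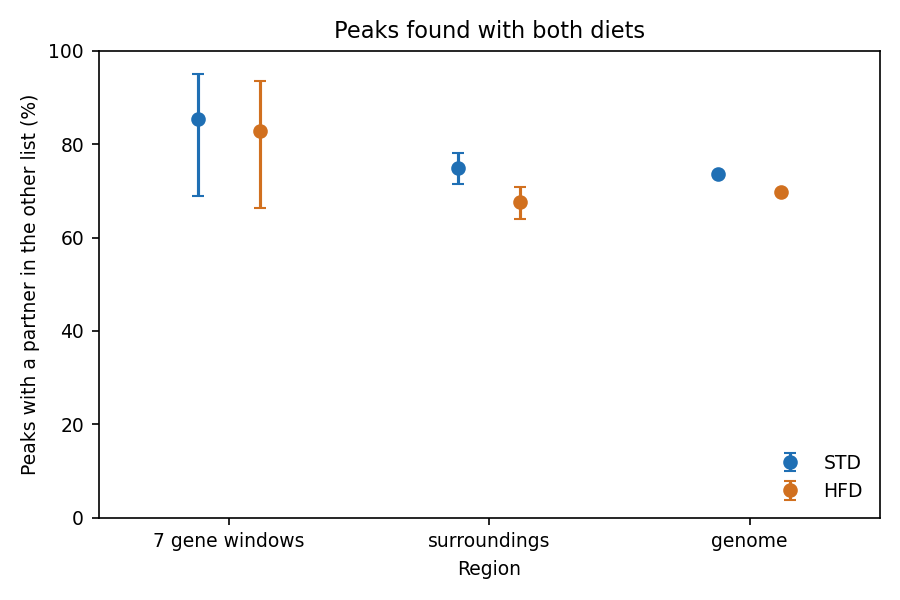
Percent of STD and HFD peaks with a partner in the other list, in the 7 gene windows, their surroundings and the genome, with exact 95% binomial intervals as bars. The points of the gene windows, 85.3% and 82.9%, are the highest, and their bars take in the values of the surroundings and the genome.

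Peak density, as counted, differed more between genes than between diets. It was highest at Plin1, with 229 peaks per Mb in both lists, and Fasn, with 205 in both. Lep had 176 (STD) and 206 (HFD), Pnpla2 192 and 154, and Adipoq 125 in both. Lpl had 42.6 and 63.8 and Fabp4 40.0 in both. The intervals are wide, for example 98.7 to 450 peaks per Mb for the 8 peaks at Plin1. For the 2 STD peaks at Lpl the interval was 5.15 to 154. All the intervals overlapped one another, those of the highest and lowest genes included, so the counts do not separate the genes.

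In their surroundings the genes kept a similar order at lower contrast. The Fasn surroundings held 132 STD and 133 HFD peaks per Mb, those of Pnpla2 112 and 122, Plin1 109 and 122, Lep 101 and 114, Adipoq 97 and 98, Fabp4 80 and 96, and Lpl 47 and 64. The windows of Plin1, Lep, Pnpla2, Fasn and Adipoq were denser than their surroundings in both lists, by ratios from 1.26 (Pnpla2, HFD) to 2.10 (Plin1, STD). At Fabp4 the ratio was 0.50 (STD) and 0.417 (HFD) and at Lpl 0.905 and 0.997. Every one of the 14 intervals of these ratios included 1. Pooled over the 7 windows the ratio was 1.48 (1.01 to 2.08) with STD and 1.37 (0.95 to 1.93) with HFD. Whether these intervals included 1 depended on the setting. The STD interval did so when the Lep, Plin1, Pnpla2 or Fasn window was left out, and for peaks taken by their midpoint (0.976 to 2.03). It also did so for the inner parts alone (0.954 to 2.75), for windows widened by 10 kb (0.988 to 1.80) and for the wider 50% of each list (0.986 to 2.63). The HFD interval lay above 1 with surroundings of 1 Mb on each side (1.02 to 2.06), without the Fabp4 window (1.007 to 2.07) and with windows widened by 10 kb (1.003 to 1.78). Against the rest of the chromosome it did so as well (1.49 to 2.97). These intervals set windows against surroundings within a list. The ratios of the diets were not compared with each other, so no difference between the diets is shown. The windows are short stretches around genes, and their density was not adjusted for CpG number or for how well reads map.

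**Figure D4:**
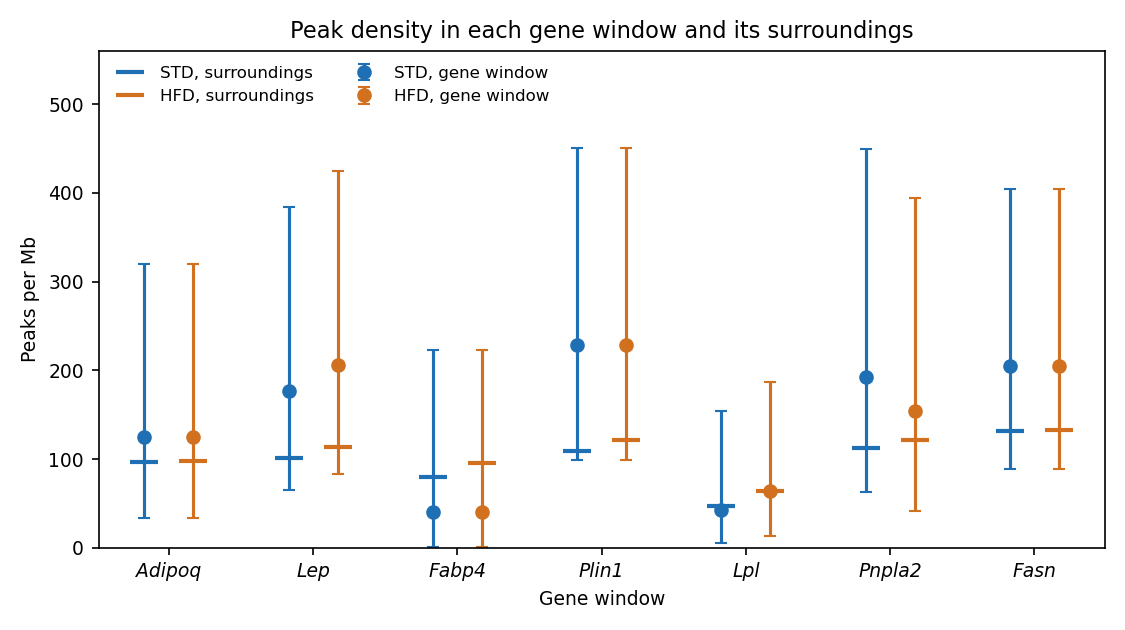
Peaks per Mb in each gene window (points, with exact 95% Poisson intervals) and in the 1 Mb around it (horizontal marks), for STD and HFD. The points of Plin1 are the highest, at 229 with both diets, those of Fabp4 and Lpl the lowest, and every interval takes in the mark of its own surroundings.

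In covered bases, the windows held 12889 bp of STD peaks and 12331 bp of HFD peaks, a ratio of 0.957. Its interval, scaled from that of the peak numbers and so also ignoring the pairing of sites between the lists, ran from 0.58 to 1.58. No interval was computed for the cover of single genes. Pnpla2 had the most unequal cover, with 8.87% of its window with STD and 6.07% with HFD, the broad STD peak without a partner included. Lep was covered more with HFD, at 7.83% against 7.08%. Adipoq (5.86% STD and 5.94% HFD), Plin1 (6.49% and 6.07%) and Fasn (6.72% and 6.37%) were nearly equal, and Lpl (2.10% and 2.25%) and Fabp4 (1.70% and 2.10%) had the least. In the surroundings cover ran from 1.78% (Lpl, STD) to 5.11% (Fasn, STD).

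**Figure D5:**
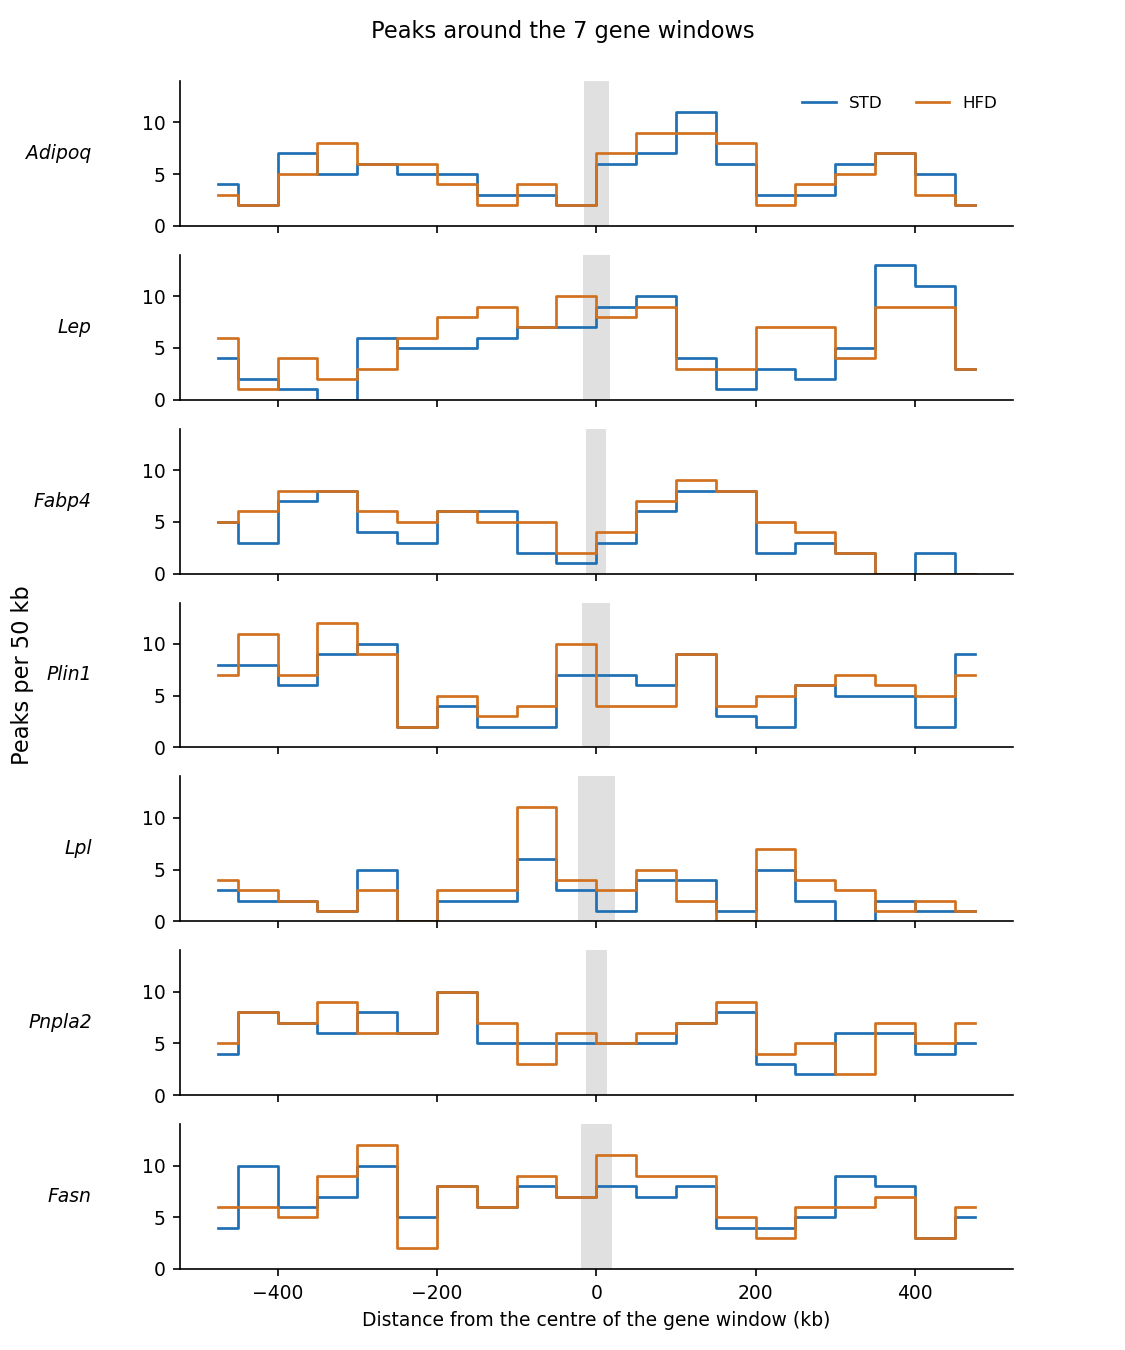
Number of STD and HFD peaks in bins of 50 kb by the distance in kb from the centre of each gene window (grey). The lines of Lpl are low over most of the range. Gaps between the diets go both ways. HFD is higher, for example, in the Lpl bin centred at -75 kb (6 STD and 11 HFD peaks) and the Lep bin centred at 275 kb (2 and 7). STD is higher, for example, in the Lep bin centred at 375 kb (13 and 9). The counts per bin are small and were not tested.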

How the data were processed

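MeDIP-seq peak lists of 2 libraries, 1 STD and 1 HFD, were used, grouped by the diet in the labels. The deposited values are peak positions (chromosome, start, end, name) with no score. Per the submitters' processing notes, BWA and mm9 were used. How peaks were called, against which control and threshold, and whether mice were pooled is not given in the sources used here. Depth is unknown, and peak number and width can both grow with depth. Starts are printed counting from 1. The 6 mitochondrial peaks per list were set aside.

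The windows were taken as given, rounded to 1 kb, and not checked against mm9 gene models. The genes and windows were chosen with earlier results of these data known. Other lipid genes were not analysed here, for want of mm9 positions. Named peaks are, per window and list, the widest, those nearest to each edge of the inner part, and those without a partner above their list's median width. Other peaks named, the ranks of width differences, the cover near edges and the peak-free stretches were chosen after their values were seen. Gene neighbours and promoters came from RefSeq (GRCm38.p6), matched by symbol: 7 of 7 genes and 5 of 7 promoters.

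Intervals are Clopper-Pearson for shares, exact Poisson for densities and exact conditional binomial for ratios of densities. No test across samples was possible with 1 library per diet. Alternatives were other window bounds, width limits, partner rules and surroundings, and leaving out each gene. Python 3.11.15, scipy 1.17.1, numpy 2.4.6, matplotlib 3.10.9 and pandas 2.3.3 were used. Window and partner numbers were identical with bedtools 2.31.1, and the scripts were tested on simulated lists.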

Additional observations from a re-analysis of the deposited data

How the results depend on the processing

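Of 105 recomputed values, 94 stayed within the counting interval of the reported value or, for numbers of peaks, within 1.5 times it. The inner parts alone held 16 STD and 16 HFD peaks, and windows widened by 10 kb at each end held 54 HFD peaks. With peaks of at least 300 bp, 22 HFD peaks were left and 64.0% of the STD peaks had a partner. In the wider 50% of each list, 19 STD and 19 HFD peaks were left and 63.2% of either had a partner, against 68.7% and 65.4% in the genome, so the higher shares of the windows did not hold there. Both filters also remove narrow partners. Against the rest of their chromosomes, the windows were 2.19 (STD) and 2.13 (HFD) times as dense. The HFD share of peaks ranged from 46.8% to 52.4% and the ratio of covered bases from 0.866 to 1.02. No paired analysis was possible because only 1 library represents a diet, which also leaves no replicate to omit. With the depth unknown, a missing peak cannot be told from a weak one.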

Other observations

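Around the genes, the surroundings of Lpl had the lowest share of HFD peaks with a partner. There, 29 of 64 HFD peaks and 12 of 47 STD peaks had none, so that 54.7% (41.8 to 67.2) of the HFD peaks and 74.5% (59.7 to 86.1) of the STD peaks had a partner. The surroundings of Fasn had the highest HFD share, with 78.2% (70.2 to 84.9) of 133 HFD peaks and 78.0% (70.0 to 84.8) of 132 STD peaks. Of the 14 intervals, the HFD ones of Lpl and Fasn left out the value of the genome (69.7%), on opposite sides of it, and both regions were singled out after their values were seen. In those of Fabp4, 16 of 80 STD and 32 of 96 HFD peaks had no partner.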
